A study of Mus musculus with 8 samples.

Results

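The 10 genes described here encode small leucine-rich proteoglycans of the extracellular matrix: Dcn (decorin), Bgn (biglycan), Aspn (asporin), Lum (lumican), Fmod (fibromodulin), Prelp, Omd (osteomodulin), Kera (keratocan), Ogn (osteoglycin, also called mimecan) and Podn (podocan). They were taken by symbol from the 41325 genes listed in each table of RPKM, read counts divided by the exon length of the gene and the depth of the library. RNA-seq was run on C3H10T1/2 cells, a mouse mesenchymal stem cell line, in 4 lines that carry shControl, shKDM4D, shNFIB or shMLL1. KDM4D is a histone H3K9 demethylase, NFIB is a transcription factor of the nuclear factor I family, and MLL1, encoded by Kmt2a, is a histone H3K4 methyltransferase. Each line was sequenced at day 0, when the cells had been confluent for 2 days, and at day 5 of adipogenic differentiation, with 1 library for each line and day and 8 in all. Differentiation was induced in all lines with insulin at 10 µg/ml, dexamethasone at 1 µM and isobutylmethylxanthine at 0.5 mM, followed by insulin alone for 2 days and then by medium with 10% serum. The genotype of the shControl libraries is given as WT, and the knockdown cells were puromycin-selected clones, without a statement of which clone was sequenced. The line and the clone therefore cannot be told apart.

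Small leucine-rich proteoglycans have a curved core of leucine-rich repeats that binds collagen fibrils and sets their diameter and spacing. Many members carry chondroitin, dermatan or keratan sulfate chains, and several bind TGF-beta or cell surface receptors. Fibroblasts and other mesenchymal cells are their usual source. By sequence they are divided into classes, of which class I holds decorin, biglycan and asporin, class II lumican, fibromodulin, PRELP, osteomodulin and keratocan, class III osteoglycin, and class V podocan.

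Several members are neighbours in the genome (GRCm38, GENCODE M21). Aspn (chr13:49544443-49567565), Omd (chr13:49582462-49592822) and Ogn (chr13:49608046-49624501) follow each other on the plus strand, with the related gene Ecm2 before them. The 3 genes lie inside Cenpp, a centromere protein gene on the other strand, with which only Aspn shares exon sequence, over 7 bases. Dcn (chr10:97479609-97518143), Lum (chr10:97565128-97572703) and Kera (chr10:97606879-97613692) form a second cluster on the plus strand, followed by the related gene Epyc. Prelp (chr1:133910304-133921414, minus strand) and Fmod (chr1:134037254-134048277, plus strand) lie on chromosome 1, and 350 exon bases of Prelp are shared with the antisense gene Gm15851. Bgn (chrX:73483602-73495933, plus strand) and Podn (chr4:108014791-108096445, minus strand) are on chromosomes of their own.

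Of the 10 members, 8 had a promoter entry in RefSeq (GRCm38.p6). The 250 bases before the start site are shown for the 3 genes of the chromosome 13 cluster and for Prelp. At day 0 the 3 genes were over 2-fold lower than shControl in shMLL1, Aspn also in shNFIB and Ogn also in shKDM4D. Prelp was over 2-fold higher in both shNFIB and shKDM4D on that day. Capitals mark TTGGC or its reverse complement, the core of the site that nuclear factor I proteins bind.
Aspn, chr13:49544193-49544442, plus strand: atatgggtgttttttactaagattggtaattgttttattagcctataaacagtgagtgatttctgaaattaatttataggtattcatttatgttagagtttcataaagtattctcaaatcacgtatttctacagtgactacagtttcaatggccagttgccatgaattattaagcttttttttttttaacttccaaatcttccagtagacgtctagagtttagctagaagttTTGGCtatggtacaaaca
Omd, chr13:49582212-49582461, plus strand: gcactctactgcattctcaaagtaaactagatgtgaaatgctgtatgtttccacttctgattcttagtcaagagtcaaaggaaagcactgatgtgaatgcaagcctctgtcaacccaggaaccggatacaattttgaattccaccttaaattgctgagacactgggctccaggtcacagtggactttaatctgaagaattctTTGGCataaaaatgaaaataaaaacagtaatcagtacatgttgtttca
Ogn, chr13:49607765-49608014, plus strand: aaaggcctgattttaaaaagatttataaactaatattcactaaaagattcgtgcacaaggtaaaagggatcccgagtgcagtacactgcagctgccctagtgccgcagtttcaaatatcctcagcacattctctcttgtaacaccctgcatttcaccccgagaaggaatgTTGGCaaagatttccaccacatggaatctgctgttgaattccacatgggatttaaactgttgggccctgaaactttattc
Prelp, chr1:133921402-133921651, minus strand: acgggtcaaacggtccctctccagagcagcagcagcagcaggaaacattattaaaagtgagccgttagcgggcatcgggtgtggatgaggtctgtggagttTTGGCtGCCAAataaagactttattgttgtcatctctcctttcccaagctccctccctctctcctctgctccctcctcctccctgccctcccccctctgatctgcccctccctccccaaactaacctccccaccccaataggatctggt
The match began 18 bases before the start of Aspn, 48 before that of Omd and 80 before that of Ogn, and Prelp held matches at 149 and 143 bases before its start. A match on either strand was present in 7 of the 8 members with an entry, for Podn at 1 of its start sites, and in 41.5% of 32851 mouse promoters of the same length. Members were counted by gene over all their start sites and the 32851 promoters singly, so the units differ. The AP-1 letters TGANTCA were in none of the 8 members' windows and in 6.75% of all promoters. The TATA letters TATAAA were in the windows of Aspn and Ogn, at 178 or more bases before the start, and in 12.4% of all promoters. These are letter matches only, and the binding of NFIB to them was not measured in these libraries.

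The libraries held 15800000 to 38200000 mapped reads, recovered from the RPKM steps, and 96.2% to 96.6% of the values came out as whole reads within 0.02. The reads of the members were all whole within that tolerance. Since each line and day had 1 library, a difference between a pair of libraries was not tested and is given with an exact 95% interval that covers counting error only and not the spread between cultures or clones. A gene is said to have risen or fallen where its RPKM differed by more than 2-fold. As a check of the labels, Nfib was 9.92 and 17.0 RPKM in shControl at days 0 and 5 and 2.31 and 3.38 in shNFIB. Kmt2a was 5.17 and 5.27 in shControl and 2.00 and 1.63 in shMLL1. Kdm4d had 2 and 13 reads in shControl and 1 and 4 in shKDM4D, too few for a check at day 0. The mesenchymal markers Pdgfra, Pdgfrb and Vim were present in all libraries, while the highest Nt5e value was 0.0218 RPKM, in shControl at day 0. Thy1, a surface marker of mesenchymal cells, was 25.0 and 22.6 RPKM in shControl and 11.8 and 11.1 in shMLL1, but between 0.0171 and 0.139 in shKDM4D and shNFIB. Eng was between 6.47 and 17.2 RPKM. Ly6a, another surface marker of these cells, went from 172 to 136 RPKM in shControl and from 191 to 109 in shKDM4D, but from 90.6 to 340.2 in shNFIB and from 81.5 to 927 in shMLL1. The part of these marker differences in the results was not tested.

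The members spanned a wide range of levels, and biglycan was the most abundant in every library. Bgn was between 446 and 929 RPKM. Ogn ranged from 16.1 to 600.1, Aspn from 6.45 to 454, Prelp from 45.1 to 209, Dcn from 0.693 to 92.2 and Omd from 4.10 to 45.1. The other 4 were scarce: Lum reached 5.47 RPKM, Fmod 3.72, Podn 1.89 and Kera 1.14. The summed RPKM of the 10 genes was 662 at day 0 and 2058 at day 5 in shControl, 880 and 2073 in shKDM4D, 772 and 1727 in shNFIB, and 521 and 1696 in shMLL1. At day 0 Bgn made up 70.5% of the sum in shControl and 85.6% in shMLL1. By day 5 its share was 38.5% in shControl and 50.5% in shMLL1, and Ogn and Aspn together with Prelp filled most of the rest. In the ranking of all genes by RPKM in shControl, Ogn moved from place 585 to place 63, Aspn from 598 to 86, and Bgn from 72 to 41.

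**Figure D1:**
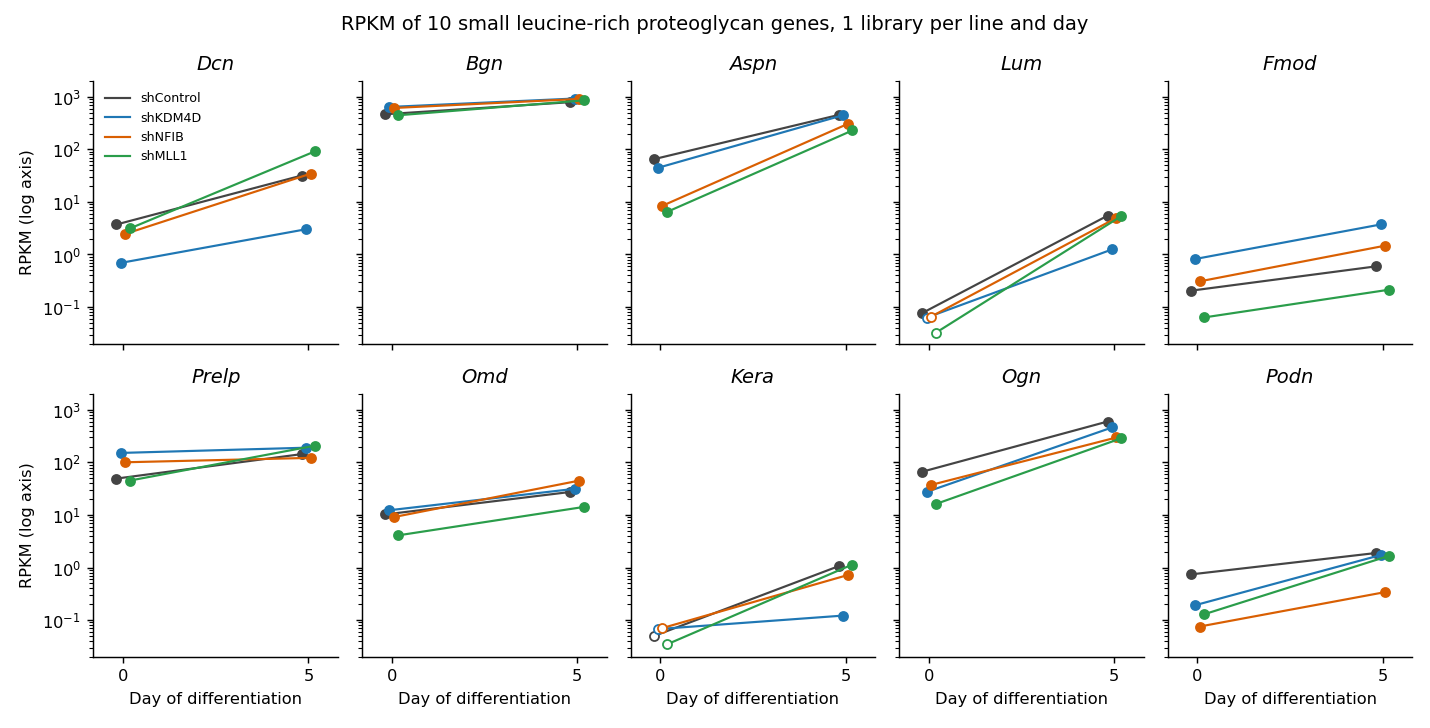
RPKM of each member (log axis, the same in all panels) at day 0 and day 5, with 1 point per library and colours for the 4 lines. Open points are libraries with 0 reads, drawn at the level of 3 reads, and every line slopes upwards from day 0 to day 5.

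**Figure D2:**
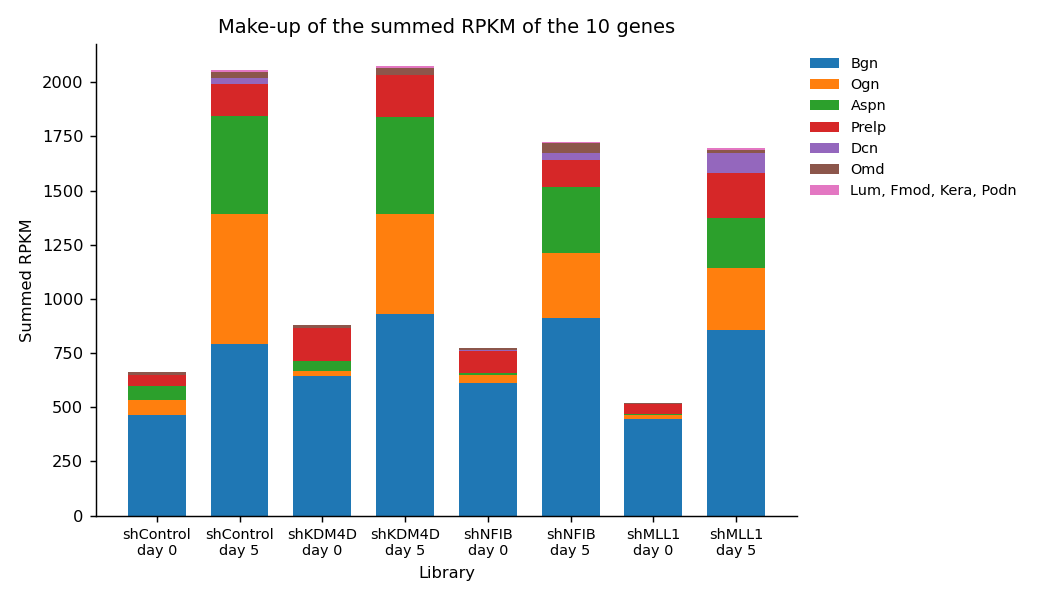
Summed RPKM of the 10 members in each of the 8 libraries (linear axis from 0), stacked by gene. Bgn fills most of each day 0 bar, and Ogn and Aspn account for much of the taller day 5 bars, which reach 2058 in shControl and 1696 in shMLL1.

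The first question was how the members changed during differentiation. All 10 had a higher RPKM at day 5 than at day 0 in each of the 4 lines, with counting intervals above 0, although Prelp in shNFIB turned to a log2 ratio of -0.29 when scaled to Gapdh. In shControl 9 members rose and none fell, where 13.0% of the 11513 genes that exceeded an RPKM of 1 somewhere among the 8 libraries rose and 8.56% fell. In shKDM4D 8 rose, against 12.8% of genes that rose and 8.44% that fell. In shNFIB 8 rose, against 12.6% and 4.96%, and in shMLL1 9 rose, against 20.4% and 6.89%. No member fell in any line. The median log2 ratio of the 10 members, with 0 reads set to 3, came to 2.18 for the shControl line, 2.15 for shKDM4D, 2.65 for shNFIB and 3.93 for shMLL1, and that of all genes was between 0.03 and 0.17. Lum, Fmod, Kera and Podn passed the RPKM limit through day 5 libraries alone, so a rise was favoured by the limit. Their count is not read against the share of all genes, nor the median of the 10 members against that of all genes. The Lum and Kera values in that median also depend on the 3 reads set for 0. Among the 6 members over 1 RPKM in a day 0 library, 5 rose in shControl and shMLL1 and 4 in shKDM4D and shNFIB. Of the 10641 genes that met this limit, chosen after seeing the data, 8.48% rose in shControl and 15.5% in shMLL1, with 8.32% and 8.04% for shKDM4D and shNFIB.

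The day effect over the 4 lines was also tested, in an analysis added after seeing the data, with line and day as terms of 1 limma fit on log2(RPKM + 0.1). The spread in this test is that between lines, which are different knockdowns and not replicate cultures. All 10 members were called higher at day 5 with a Benjamini-Hochberg adjusted p below 0.05, where 29.0% of genes were called higher and 21.0% lower. Lum, Fmod, Kera and Podn entered the test through day 5 libraries alone, so their calls are not read against these shares. The mean log2 change ranged from 0.70 ± 0.11 (SE) for Bgn, with an adjusted p of 0.00376 by limma, to 5.04 ± 0.39 for Lum, with 0.000644. At day 0 Lum had 5 reads in shControl and 0 in the other lines, and Kera had 0 in all. The changes and SE of Lum and Kera thus depend on the added 0.1. The least certain was Prelp, at 1.09 ± 0.34 and an adjusted p of 0.0379 by limma. Leaving out 1 line at a time kept 9 or 10 members below 0.05, with Prelp at an adjusted p of 0.113 by limma without shControl and 0.0851 without shMLL1, and Fmod at 0.0649 without shKDM4D.

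**Figure D3:**
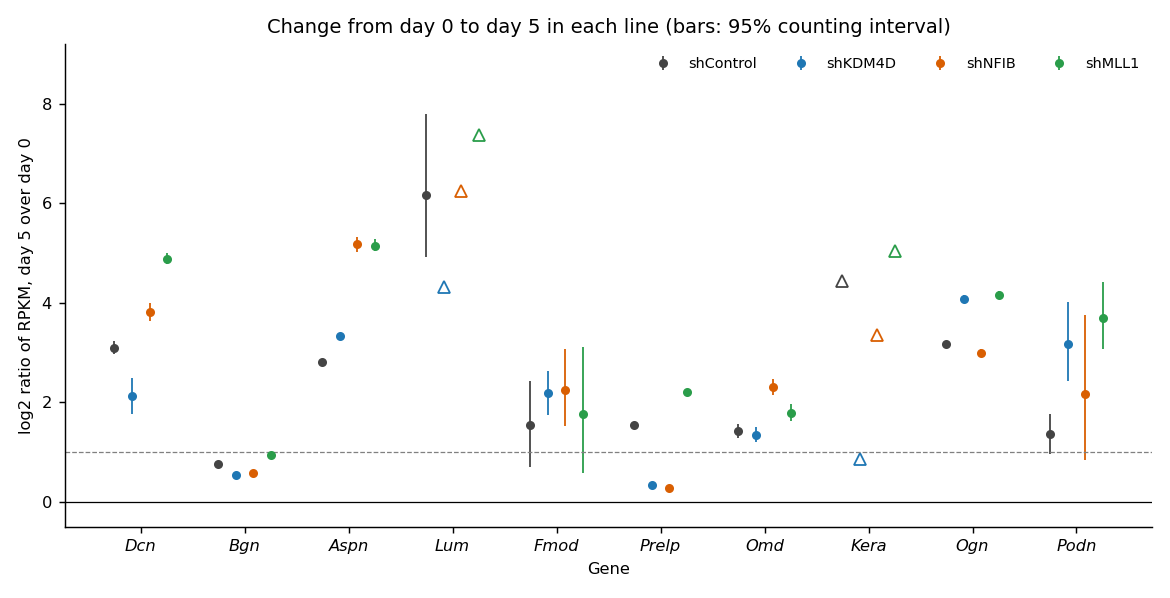
Log2 ratio of RPKM at day 5 over day 0 for each member in the 4 lines, with 95% counting intervals as bars. Open triangles are lower bounds for genes with 0 reads at day 0, the dashed line is 2-fold, and all points lie above 0, with Bgn below the dashed line in every line.

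Among the class I genes, Bgn stayed within 2-fold between the days, while Dcn and Aspn rose in all 4 lines. Dcn encodes decorin, a collagen-binding proteoglycan that also sequesters TGF-beta. Its RPKM went from 3.72 to 31.8 in shControl, from 0.693 to 3.03 in shKDM4D, from 2.47 to 34.5 in shNFIB and from 3.13 to 92.2 in shMLL1. The shKDM4D library was lowest on both days, and its day 5 level was below the day 0 level of shControl. The counting interval of shKDM4D at day 5, 2.73 to 3.35 RPKM, overlapped that of shMLL1 at day 0, 2.90 to 3.37. The change was 8.55-fold (95% interval 7.83 to 9.35) in shControl, 4.37-fold (3.42 to 5.64) in shKDM4D, 14.0-fold (12.4 to 15.9) in shNFIB and 29.5-fold (27.3 to 31.9) in shMLL1. In shMLL1 the log2 change exceeded that in shControl by 1.79 (1.62 to 1.95), and in shKDM4D it was smaller, with a difference of -0.97 (-1.34 to -0.60).

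Bgn encodes biglycan, the close relative of decorin with a pair of glycosaminoglycan chains. Its RPKM was 466 and 792 at days 0 and 5 in shControl, 642 and 929 in shKDM4D, 614 and 913 in shNFIB, and 446 and 857 in shMLL1. The ratio of day 5 to day 0 was 1.70, 1.45, 1.49 and 1.92 in that order, so Bgn stayed within 2-fold in all 4 lines, except that its log2 ratio in shKDM4D came to 1.00 relative to Gapdh, just past the limit.

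Aspn encodes asporin, which binds collagen and TGF-beta and has an aspartate stretch in place of the usual chain attachment site. It went from 64.9 to 454 RPKM in shControl, from 44.7 to 449.7 in shKDM4D, from 8.47 to 306 in shNFIB and from 6.45 to 229 in shMLL1. The day 0 levels of shNFIB and shMLL1 stood well below the other two, while at day 5 the 4 libraries were within 2-fold of each other. The rise was 7.0-fold (6.77 to 7.24) in shControl, 10.1-fold (9.62 to 10.5) in shKDM4D, 36.2-fold (32.6 to 40.2) in shNFIB and 35.5-fold (32.7 to 38.6) in shMLL1. Compared with shControl, the log2 change was larger by 2.37 (2.21 to 2.53) in shNFIB and by 2.34 (2.22 to 2.47) in shMLL1.

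The class II genes ranged from undetected to abundant. Lum, which encodes a keratan sulfate proteoglycan that regulates fibril spacing, had 5 reads in shControl at day 0 and 0 in the other day 0 libraries. At day 5 it was 1.25 RPKM in shKDM4D, but 5.47 in shControl, 4.98 in shNFIB and 5.31 in shMLL1, and the latter 3 could not be told apart by counting error. The rise was 71.4-fold (30.2 to 222) in shControl and, against a floor of 3 reads per library, at least 19.9-fold in shKDM4D, 75.8-fold in shNFIB and 166-fold in shMLL1. Kera, which encodes a keratan sulfate proteoglycan best known from the cornea, had 0 reads in all day 0 libraries. At day 5 it was 1.07, 0.122, 0.720 and 1.14 RPKM in shControl, shKDM4D, shNFIB and shMLL1. The bound on its rise was at least 21.6-fold in shControl but only 1.81-fold in shKDM4D, where 6 reads were counted, so with 0 reads set to 3 the number of members that rose in shKDM4D was 7.

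Prelp encodes a heparin-binding member that anchors basement membranes to collagen. Its RPKM went from 49.3 to 144 in shControl and from 45.1 to 209 in shMLL1, but was 152 and 191 in shKDM4D and 101 and 122 in shNFIB. The lines that were high at day 0 thus remained within 2-fold, at 1.26-fold (1.23 to 1.29) and 1.21-fold (1.17 to 1.25), while shControl rose 2.92-fold (2.82 to 3.03) and shMLL1 4.62-fold (4.5 to 4.75). The log2 change differed from that of shControl by -1.22 (-1.28 to -1.16) in shKDM4D, by -1.27 (-1.34 to -1.20) in shNFIB and by 0.66 (0.60 to 0.73) in shMLL1.

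Omd encodes osteomodulin, a keratan sulfate proteoglycan of mineralized tissue. It rose from 10.2 to 27.4 RPKM in shControl, from 12.3 to 31.5 in shKDM4D, from 9.12 to 45.1 in shNFIB and from 4.10 to 14.2 in shMLL1. The largest of these rises was 4.94-fold (4.42 to 5.54) in shNFIB and the smallest 2.56-fold (2.32 to 2.82) in shKDM4D. Fmod encodes fibromodulin, which shares a collagen binding site with lumican. It was 0.204 and 0.595 RPKM in shControl, 0.820 and 3.72 in shKDM4D, 0.308 and 1.47 in shNFIB, and 0.0633 and 0.214 in shMLL1. These levels rest on 8 to 266 reads. The rise of Fmod lay between 2.91-fold in shControl and 4.77-fold in shNFIB, with intervals that all overlap, and the shControl and shMLL1 rises fell within 2-fold after quantile normalization.

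Ogn, the class III member, encodes osteoglycin, a small matrix protein that takes part in fibril assembly. It went from 66.5 to 600.1 RPKM in shControl, from 27.5 to 462 in shKDM4D, from 37.3 to 298 in shNFIB and from 16.1 to 286 in shMLL1. The shControl library was highest on both days. The rise was 9.02-fold (8.75 to 9.31) in shControl and 8.0-fold (7.62 to 8.42) in shNFIB, but 16.8-fold (15.9 to 17.8) in shKDM4D and 17.8-fold (16.9 to 18.7) in shMLL1. Podn, the class V member, encodes podocan, a collagen-binding protein of vessel walls and other tissues. It was 0.738 and 1.89 RPKM in shControl, 0.192 and 1.72 in shKDM4D, 0.0753 and 0.340 in shNFIB, and 0.129 and 1.68 in shMLL1. Its rise was 2.56-fold (1.95 to 3.38) in shControl and 13.0-fold (8.35 to 21.4) in shMLL1.

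The rise of the members was seen in lines with very different levels of adipocyte markers. The summed RPKM of Adipoq, Fabp4, Plin1, Cidec and Lpl went from 0.702 to 741 in shControl, from 0.226 to 25.0 in shKDM4D, from 0.154 to 0.868 in shNFIB and from 0.154 to 2.66 in shMLL1. Over the same days the summed RPKM of the 10 proteoglycans rose 3.11-fold, 2.36-fold, 2.24-fold and 3.25-fold. Bgn, which stayed within 2-fold, made up 38.5% to 85.6% of the sums behind these folds. Whether the rise of the members depended on the adipocyte marker level was not tested. In bulk libraries, fewer cells of a type and less RNA per cell cannot be told apart. Among other cell types, the 3 endothelial markers summed to at most 0.147 RPKM and the 4 macrophage markers to at most 1.66, with Adgre1 at 0 in most libraries. Osteoblast markers summed to 2.94 to 8.44, of which Runx2 was the only marker that passed 1 RPKM. Tendon markers summed to 16.5 to 25.9 at day 0 and 3.41 to 8.23 at day 5, smooth muscle markers to 848 to 1287 and 290 to 879, and cartilage markers to 72.2 to 102 and 128 to 194. The smooth muscle sums were nearly all Acta2, at 845 to 1280 RPKM at day 0 and 289 to 878 at day 5. Tagln was at most 7.19 RPKM, Myh11 0.324 and Cnn1 0.0686. In the tendon list Scx and Mkx were lower at day 5 in all lines, while Tnmd was higher, at 1.39 and 3.14 RPKM in shControl. In the cartilage list Acan was at or below 0.00619 RPKM, Sox9 was higher at day 5 and Col2a1 lower. The part of these cell types in the change of the members was not tested.

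The next question was how each knockdown line compared with shControl on the same day. The 3 comparisons of a day share the shControl library, so they are not independent of each other. At day 0, 2 members were past 2-fold higher and 4 lower in shKDM4D, where 1.98% of genes were higher and 4.26% lower. In shNFIB 1 was higher and 3 lower, against 2.95% and 6.05% of genes, and in shMLL1 none was higher and 6 were lower, against 1.67% and 7.43%. Each of these counts of lower members includes Lum, with 0 reads against 5. With 0 reads set to 3, a setting added after seeing the data, the lower members numbered 3 for shKDM4D, 2 for shNFIB and 6 for shMLL1. Lum, Fmod and Podn passed the RPKM limit through day 5 libraries alone, so counts with them are not read against the shares. Among the 6 members over 1 RPKM in a day 0 library, 1 was higher and 2 lower in shKDM4D. Of the 10641 genes that met this limit, chosen after seeing the data, 1.36% were higher and 2.56% lower. In shNFIB 1 was higher and 1 lower, against 2.30% and 4.11%, and in shMLL1 0 and 3, against 1.17% and 5.32%. At day 5, 1 member was higher and 3 were lower in shKDM4D, against 1.88% and 4.57% of genes. In shNFIB 1 was higher and 2 were lower, against 5.54% and 5.67%, and in shMLL1 1 was higher and 2 were lower, against 5.25% and 4.02%. Fmod, higher in shKDM4D and shNFIB, passed the RPKM limit in those 2 day 5 libraries alone. Kera in shKDM4D, Podn in shNFIB and Fmod in shMLL1, all lower, passed it only in day 5 libraries of other lines. These counts are thus not read against the shares. Of the 6 members over 1 RPKM at day 0, 0 were higher and 1 lower in shKDM4D, against 1.24% and 2.94% of such genes. In shNFIB it was 0 and 1, against 4.75% and 3.77%, and in shMLL1 1 and 1, against 4.03% and 2.49%. In the limma fit, which takes the mean over the 2 days, no member was called for any knockdown at an adjusted p below 0.05. At that limit 0.00% of all genes were called higher and 0.0347% lower in shKDM4D, 0.104% and 0.269% in shNFIB, and 0.00% and 0.0174% in shMLL1. At an unadjusted limma p below 0.05 there were 4 members for shKDM4D, 3 for shNFIB and 3 for shMLL1. Of the 11513 genes, 582 were higher and 752 lower at the unadjusted limit in shKDM4D, 1461 and 1047 in shNFIB, and 798 and 957 in shMLL1. The member counts at the unadjusted limit are not read as a result.

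**Figure D4:**
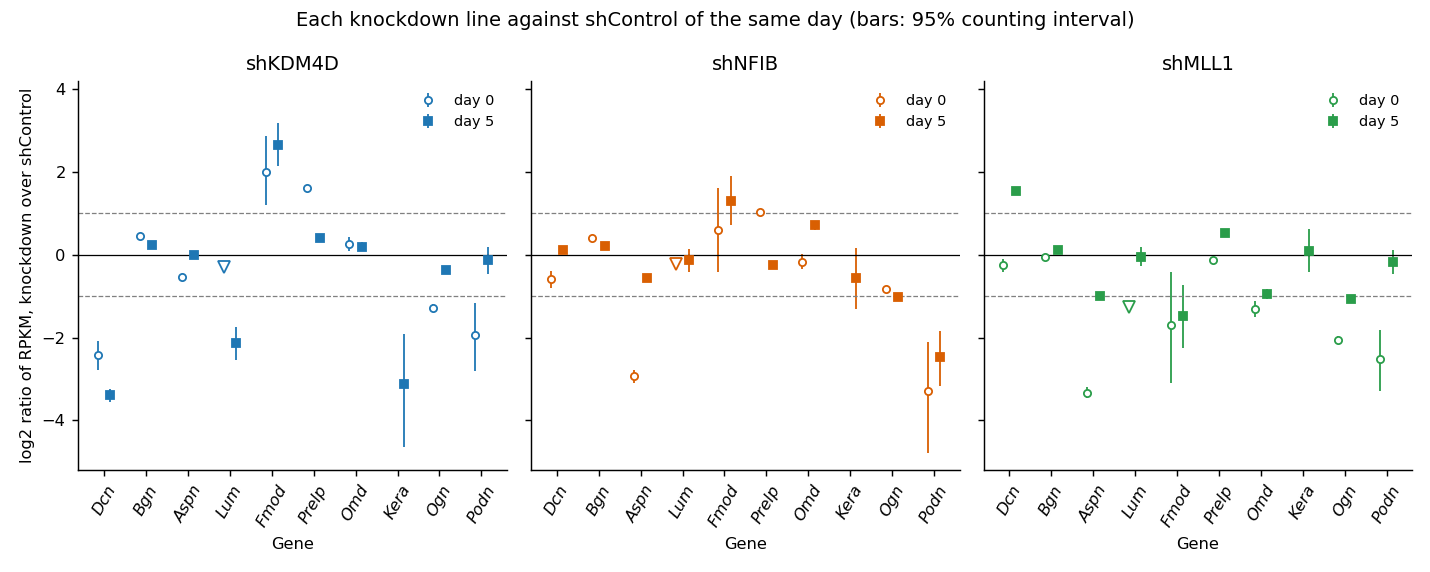
Log2 ratio of RPKM in each knockdown line over shControl, at day 0 (open circles) and day 5 (filled squares), with 95% counting intervals as bars. Dashed lines are 2-fold, open triangles are bounds for Lum where the knockdown had 0 reads, and Kera at day 0 is not drawn. Aspn lies far below 0 at day 0 in shNFIB and shMLL1 and nearer to 0 at day 5, and Dcn lies lowest in shKDM4D on both days.

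In shKDM4D, Dcn was lower by 5.38-fold at day 0 and by 10.5-fold at day 5, with log2 ratios of -2.43 (-2.78 to -2.09) and -3.39 (-3.55 to -3.24). Lum and Kera, its neighbours on chromosome 10, were also lower at day 5, by 4.39-fold and 8.76-fold, the latter with 6 reads against 47. The fourth gene of that cluster, Epyc, was 1.31 RPKM in shControl and 0.470 in shKDM4D at day 5, a log2 ratio of -1.48 (-2.20 to -0.81). In shNFIB the 4 genes did not move together on that day: the log2 ratio was 0.12 for Dcn, -0.14 for Lum, -0.57 for Kera and 2.58 (2.19 to 2.99) for Epyc. In shMLL1 Dcn alone was past 2-fold, at 2.90-fold higher (2.79 to 3.0), and the intervals of Lum, Kera and Epyc included 0. Fmod was higher in shKDM4D, 4.01-fold (2.31 to 7.28) at day 0 and 6.26-fold (4.44 to 9.04) at day 5, and Prelp was 3.08-fold higher (2.97 to 3.18) at day 0 but 1.32-fold (1.29 to 1.36) at day 5. Ogn was 2.42-fold lower at day 0 and 1.30-fold lower at day 5. Podn was 3.85-fold lower at day 0, on 16 against 84 reads, and its day 5 interval included 0. For Aspn at day 5 the ratio was 0.990 (0.972 to 1.01).

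In shNFIB the largest difference of an abundant member was that of Aspn at day 0, which was 7.66-fold lower, with a log2 ratio of -2.94 (-3.09 to -2.78). By day 5 it was 1.48-fold lower. Ogn was 1.78-fold lower at day 0 and 2.01-fold lower at day 5, close to the limit, and within 2-fold after quantile normalization. The neighbouring Ecm2 was also lower at day 0, at 0.302 RPKM against 0.721, a log2 ratio of -1.26 (-1.87 to -0.67). Omd, which lies between Aspn and Ogn, had a log2 ratio of -0.16 (-0.35 to 0.02) at day 0 and 0.72 (0.61 to 0.83) at day 5. Podn was lower on both days, by 9.81-fold at day 0 on 6 reads against 84 and by 5.56-fold at day 5 on 23 against 156. Prelp was 2.04-fold higher (1.97 to 2.12) at day 0, which fell to a log2 ratio of 0.99 when scaled to protein coding reads, and 1.18-fold lower at day 5. Fmod was 2.47-fold higher (1.66 to 3.75) at day 5. Dcn and Lum at day 5 were within 1.10-fold of shControl.

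In shMLL1 the 3 members of the chromosome 13 cluster were lower at day 0. Aspn was lower by 10.1-fold, Ogn by 4.13-fold and Omd by 2.49-fold, with log2 ratios of -3.33 (-3.46 to -3.20), -2.05 (-2.13 to -1.96) and -1.32 (-1.51 to -1.13). The adjoining Ecm2, a related leucine-rich repeat gene, was 0.721 RPKM in shControl and 0.134 in shMLL1, a log2 ratio of -2.43 (-3.07 to -1.83). Cenpp, within which the 3 members lie, was 7.31 RPKM in shControl and 6.82 in shMLL1, with an interval of -0.27 to 0.07 on the log2 scale. At day 5 the 3 members were still lower, Aspn by 1.98-fold, Omd by 1.93-fold and Ogn by 2.10-fold. After median-of-ratios scaling all 3 were past 2-fold, so that 4 members in place of 2 were lower. Podn was 5.74-fold lower at day 0 on 21 reads against 84, and Fmod was 3.23-fold lower at day 0 and 2.78-fold lower at day 5, on 27 against 38 reads at the latter. Bgn was within 1.08-fold of shControl on both days.

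**Figure D5:**
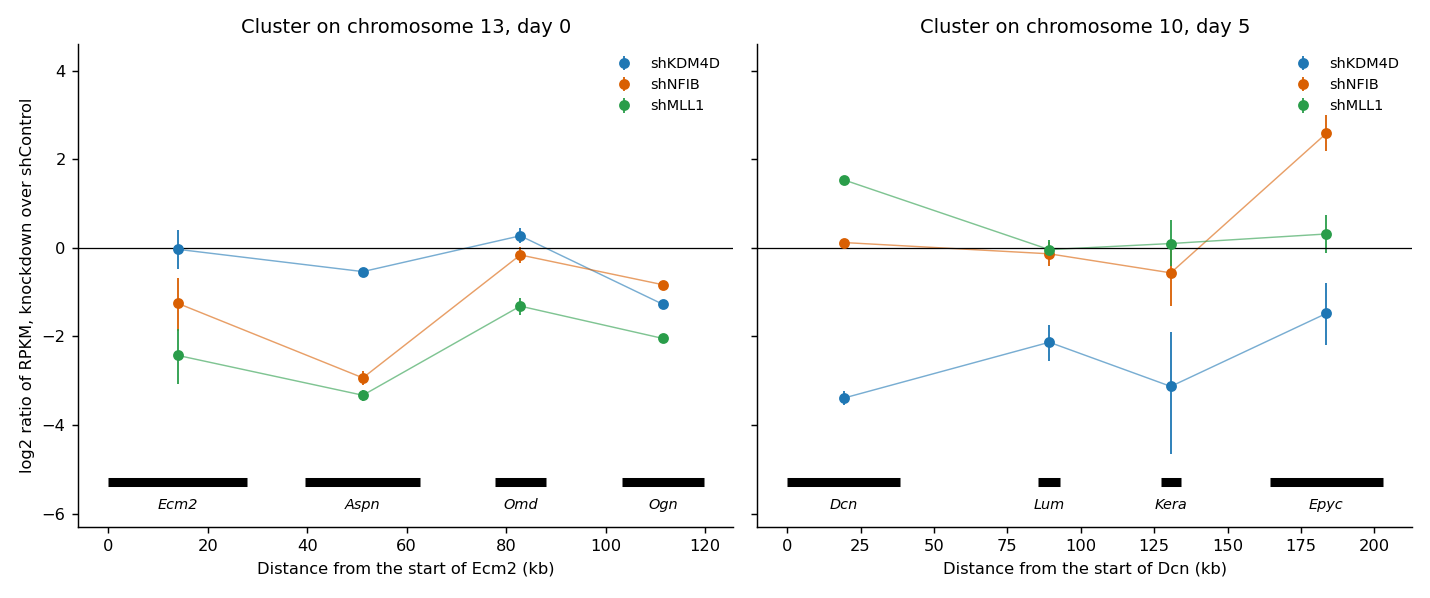
Log2 ratio of RPKM in each knockdown line over shControl, plotted by distance in kb from the first gene of each cluster, for Ecm2, Aspn, Omd and Ogn at day 0 and for Dcn, Lum, Kera and Epyc at day 5. Bars are 95% counting intervals and black boxes the genes to scale. All 4 genes of the chromosome 13 cluster lie below 0 in shMLL1 and in shNFIB, where the interval of Omd includes 0, and all 4 of the chromosome 10 cluster lie below 0 in shKDM4D.

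The other members of the family were mostly scarce. Of Ecm2, Epyc, Optc, Chad, Nyx, Tsku and Podnl1, 3 passed 1 RPKM in a library. Ecm2 went from 0.721 to 8.38 RPKM in shControl, from 0.703 to 9.16 in shKDM4D, from 0.302 to 5.46 in shNFIB and from 0.134 to 3.92 in shMLL1, and so rose in all 4 lines. Epyc, which encodes a dermatan sulfate proteoglycan of cartilage, rose as well and was highest in shNFIB at day 5, at 7.86 RPKM. Tsku, which encodes a secreted protein that modulates several signalling pathways, was between 3.04 and 6.10 RPKM and within 2-fold in every comparison.

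Genes of the fibrils that these proteoglycans bind changed in part. Counts of list members that rose or fell are set against the shares of all genes past 2-fold between the days, which were 13.0% higher and 8.56% lower in shControl, 12.8% and 8.44% in shKDM4D, 12.6% and 4.96% in shNFIB, and 20.4% and 6.89% in shMLL1. Of 12 fibrillar and fibril-associated collagen genes, 11 passed 1 RPKM, of which 6 rose in shControl, 5 each in shKDM4D and shNFIB and 7 in shMLL1, and none fell. Col3a1, a chain of fibrils in soft tissue, went from 140 to 535 RPKM in shControl and from 82.6 to 824 in shNFIB. Col1a1, the main fibrillar chain, was between 530.0 and 953 RPKM and did not pass 2-fold between the days. Of 14 assembly and partner genes, 13 passed 1 RPKM, and 4 rose in shControl and shKDM4D, 6 in shNFIB and 5 in shMLL1. Ctgf, a matricellular growth factor-binding protein, fell in shControl and shKDM4D, and in shNFIB both it and Thbs1 fell, while none fell in shMLL1. Postn, which encodes the matricellular protein periostin, rose from 34.5 to 233 RPKM in shControl, from 15.6 to 285 in shKDM4D, from 10.3 to 285 in shNFIB and from 11.2 to 221 in shMLL1.

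The enzymes that build the glycosaminoglycan chains were mostly within 2-fold between the days. Of 21 genes of chondroitin and dermatan sulfate synthesis, 18 passed 1 RPKM, of which 2 rose in shControl and shKDM4D, 1 in shNFIB and 3 in shMLL1, near or below the shares of all genes, and none fell. Chst11, a chondroitin 4-O-sulfotransferase, rose in all 4 lines, from 2.13 to 10.8 RPKM in shControl and from 1.70 to 6.06 in shMLL1. Of 7 keratan sulfate genes, 5 passed 1 RPKM and Chst1, a keratan sulfate sulfotransferase, fell in all 4 lines, from 18.5 to 8.44 RPKM in shControl and from 28.9 to 6.58 in shMLL1, while B4galt4, a galactosyltransferase, rose in shMLL1.

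Ligands and receptors that these proteoglycans bind were also read. Of 6 TGF-beta ligand and receptor genes, 3 rose in shControl and shKDM4D, 1 in shNFIB and 2 in shMLL1, and Tgfb1 fell in shKDM4D. Tgfb2 was the one that rose in all 4 lines, from 2.92 to 6.81 RPKM in shControl and from 9.45 to 19.1 in shNFIB. Of 6 other receptor genes, Egfr, which decorin binds, rose in all 4 lines, from 2.12 to 9.14 RPKM in shControl, and Tlr2, which biglycan binds, was between 3.89 and 16.1 and rose in shNFIB and shMLL1. Met, another receptor that decorin binds, fell in shKDM4D and shMLL1, and Igf1r fell in shNFIB. Bmp1, the protease that removes the propeptide of biglycan, was between 7.68 and 17.5 RPKM and within 2-fold between the days, and the related Tll1 fell in shControl and shKDM4D and rose in shMLL1. Among 13 other proteoglycan genes 10 passed 1 RPKM, and Gpc4, a cell surface heparan sulfate proteoglycan, rose in all 4 lines, while Vcan, the large chondroitin sulfate proteoglycan versican, rose in shControl, from 27.3 to 94.6 RPKM, and in shKDM4D. Sdc1 rose in shControl and Gpc6 in shMLL1, while Cspg4 fell in shControl and shKDM4D and Sdc3 in shMLL1.

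The genes whose profile over the 8 libraries was nearest to that of each member were found among 10387 genes by the root mean square difference of centred log2(RPKM + 0.1). These candidates were non-members over 0.1 RPKM in all 8 libraries and over 1 in at least 1, without Gm or Rik symbols. Genes with 0 reads in a library, as Lum and Kera had at day 0, could therefore not be found. For Aspn the nearest was its neighbour Ecm2, at 0.58, followed by Ptn and Pgm5. Ogn was nearest to Anpep at 0.22, C1s2 and C1qtnf5. Prelp was nearest to Fkbp1b at 0.29, and Omd to Pik3r3 at 0.27, Gsc and Lamb2. Dcn was nearest to H2-Q4 at 0.73, Phf11b and H2-T23. Podn was nearest to Lyplal1 at 0.39, Kera to Hist1h4h at 0.53, Lum to Enpp2 at 0.64 and Fmod to Ptger1 at 0.69. The nearest gene to Bgn, Ccdc32 at 0.09, shares a nearly flat profile. Between members the closest pair was Bgn and Prelp, at 0.46, and Aspn and Ogn were 0.83 apart, so no 2 members had the same profile over these libraries.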

How the data were processed

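RNA was taken from 8 cultures of C3H10T1/2 lines, 1 for each line and day, and sequenced. The authors mapped reads to GRCm38/mm10 with CLC Genomics Workbench and deposited RPKM per gene symbol. Their methods name quantile normalization, but the deposited columns differ in distribution, with 90th percentiles of 9.36 to 10.6 RPKM, and were used as they are. The annotation release and the use of strand in counting are not given in the sources used here. Whole reads were recovered by multiplying each RPKM by the union exon length of the gene (GENCODE M21) and dividing by the value of 1 read, and the recovery was tested on simulated data. Log2 ratios had no pseudocount. Their 95% intervals are Clopper-Pearson intervals conditional on the sum of reads, levels have Poisson intervals, and differences of changes have normal ones (SciPy 1.17.1). The intervals cover counting error only and take each read as an independent draw. PCR reads are not independent molecules, so the intervals can be too narrow even for counting error. Genes were called past 2-fold among those that exceeded an RPKM of 1 somewhere, limits taken from the study without its false discovery rate and its restriction to protein coding genes. An additive fit of line and day used limma 3.58.1 in R 4.3.3, tested on simulated data. Alternatives were 2 pseudocounts, 4 scalings and other RPKM limits. All 10 members are named, with genes of fixed lists and up to 3 genes nearest in profile, of which some are not reported here. The members and lists were chosen with earlier results of these data known.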

Additional observations from a re-analysis of the deposited data

Results flagged for a closer look

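For 2 members the knockdown differed from shControl in opposite directions on the 2 days, with counting intervals on either side of 0 and 1 of the values past 2-fold. Dcn in shMLL1 had a log2 ratio over shControl of -0.25 (-0.41 to -0.09) at day 0 and of 1.53 (1.48 to 1.59) at day 5. Prelp in shNFIB had a log2 ratio of 1.03 (0.98 to 1.08) at day 0 and of -0.24 (-0.28 to -0.19) at day 5. The other value of each pair is within 2-fold. With 1 library for each line and day the difference between the days was not tested.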

How the results depend on the processing

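With line as a block, days paired within lines, limma called all 10 members higher at day 5, and 9 to 10 when 1 line was left out. Lum, Fmod, Kera and Podn had passed the RPKM limit through day 5 libraries alone, which favoured such a call. Of 87 member ratios with reads in both libraries, none that was past 2-fold changed sign under the 6 alternatives of pseudocount and scaling. Of the 300 values for the 50 ratios past 2-fold, 279 stayed past it, and most of those lost were of Fmod and Podn, whose RPKM are low. A change of sign was seen in 11 values, all for ratios within 2-fold. With a pseudocount of 1, 5 members rose in shNFIB, 1 was higher and 2 lower in shKDM4D at day 0, 1 lower in shNFIB and 3 lower in shMLL1 at day 0, 0 higher in shNFIB and 1 lower in shMLL1 at day 5. Relative to Gapdh, 3 were higher in shNFIB at day 0, 1 was lower in shNFIB and 4 in shMLL1 at day 5. With protein coding read scaling 0 were higher in shNFIB at day 0. Quantile normalization and an RPKM limit of 2 left 1 lower in shNFIB at day 5, and median-of-ratios scaling gave 4 lower in shMLL1 at day 5. Setting 0 reads to 3, added after seeing the data, kept all counts within 1.5 times. Quantile normalization shifted the median log2 ratio of all genes between the days by -0.14 in shNFIB and -0.27 in shMLL1, median-of-ratios scaling by -0.11 and -0.21, protein coding read scaling by -0.11 in shMLL1, and Gapdh by -0.56 to 0.64 over the comparisons. The share of higher genes among those past 2-fold between the days was 74.7% in shMLL1, and 52.8% and 60.3% after quantile and median-of-ratios scaling. It was 71.8% in shNFIB, 56.2% after quantile normalization and 29.4% relative to Gapdh, and 60.2% in shKDM4D and 84.6% relative to Gapdh. Against shControl it was 31.8% in shKDM4D and 32.8% in shNFIB at day 0 and 56.6% in shMLL1 at day 5, and 10.7%, 86.8% and 31.5% relative to Gapdh, and 18.3% in shMLL1 at day 0 and 28.7% after quantile normalization. The causes were not tested. Without an RPKM limit, all members were counted as before, but the share of all genes past 2-fold moved by over 1.5 times in each comparison and direction, for example from 13.0% to 25.0% higher between the days in shControl and from 4.26% to 15.1% lower in shKDM4D at day 0.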
